A study of Homo sapiens with 4 samples.

Results

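A group of 49 genes whose products start, carry out and end mitosis was described in cells treated with dBET1, out of 64252 genes in the count table. The genes were taken from a list of names that covers mitotic entry, the Aurora kinases and their partners, the spindle checkpoint, anaphase, the kinetochore, the mitotic motors and chromosome condensation. The rule uses no measured value, although the list was drawn up with earlier results of these data known. All 49 were found by their Ensembl identifiers, and all 49 were among the 17971 genes that passed the count filter and were tested.

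RNA was sequenced as paired-end reads from human acute myeloid leukemia cells labelled NB4, a promyelocytic leukemia line that carries the PML-RARa fusion. Per the study's text and labels, 2 libraries came from cells kept for 24 h with 8 µM dBET1 and 2 libraries from cells kept for 24 h with DMSO, the solvent. dBET1 is a PROTAC, a molecule that joins a ligand of the BET bromodomain proteins to a ligand of the ubiquitin ligase adaptor CRBN, so that the BET proteins are degraded. The labels do not say whether the 2 libraries of a group came from separate cultures, so the p-values measure the spread between libraries, which may be technical.

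The libraries held 28019956 to 34685645 counts. Over genes with at least 100 counts, the chi-square per degree of freedom between the libraries of a group was 8.14 for dBET1 and 23.6 for DMSO, so replicates differed by more than sampling noise. The label NB4 was checked against granule genes of promyelocytes. ELANE and CTSG had 0 counts in every library, and the sum over these genes with MPO, AZU1 and PRTN3 was between 15 and 55 counts per library. By contrast, 10 erythroid genes, among them the globin genes HBG1 and HBG2 and the transcription factor genes GATA1 and KLF1, all had counts in every library and summed to 208306 and 217155 counts with DMSO and to 113516 and 112698 counts with dBET1. Of 5 lymphoid genes, MS4A1 had 0 counts in every library, and the 5 summed to between 388 and 977 counts, most of them from CD3D. The erythroid sum moved with the treatment, and its part in the results on mitosis genes was not tested. These marker genes go against the label, although they were chosen with earlier results of these data known. The cells are called here as they are labelled, and their identity was not tested further.

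Cells enter mitosis when the kinase CDK1, bound to a B-type cyclin, is switched on by the CDC25 phosphatases and freed from the inhibitory kinases WEE1 and PKMYT1. Condensin then compacts the chromosomes, the kinetochore couples each centromere to spindle microtubules, and the spindle checkpoint holds back the anaphase promoting complex until all chromosomes are attached. RNA of many of these genes rises in late S phase and G2 through the MuvB complex with B-MYB and FOXM1, which binds promoters at the cell cycle genes homology region (CHR), and through NF-Y, which binds CCAAT boxes.

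Promoter sequences are shown for the genes with the largest change in each direction and for genes described whatever their result, where a window was listed and the bases shown held a whole motif, since promoters with the same motifs occurred among genes that moved either way. MAD2L1 and NDC80 are not shown because these bases held none. Each line holds the 100 bases upstream of the most upstream start listed in RefSeq on GRCh38.p14, written 5′ to 3′ on the gene's strand. Capitals mark TTTGAA or TTTAAA (both forms of the CHR), CCAAT (the NF-Y site), GGGCGG (the GC box) and CACGTG (the E-box), searched on both strands, so that CCAAT on the other strand reads ATTGG and GGGCGG reads CCGCCC.
CDC25A, chr3:48188418-48188517, minus strand: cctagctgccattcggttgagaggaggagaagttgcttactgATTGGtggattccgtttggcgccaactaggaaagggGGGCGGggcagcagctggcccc
CDC25C, chr5:138338356-138338455, minus strand: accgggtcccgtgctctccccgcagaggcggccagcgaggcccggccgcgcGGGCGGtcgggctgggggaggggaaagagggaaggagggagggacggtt
CDK1, chr10:60778231-60778330, plus strand: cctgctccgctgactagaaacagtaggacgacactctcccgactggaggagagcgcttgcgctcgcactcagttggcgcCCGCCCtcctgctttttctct
CCNB1, chr5:69167050-69167149, plus strand: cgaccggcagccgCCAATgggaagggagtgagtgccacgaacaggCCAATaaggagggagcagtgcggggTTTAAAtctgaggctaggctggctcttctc
PLK1, chr16:23678789-23678888, plus strand: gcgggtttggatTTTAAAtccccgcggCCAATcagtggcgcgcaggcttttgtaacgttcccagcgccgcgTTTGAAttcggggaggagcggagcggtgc
AURKB, chr17:8210250-8210349, minus strand: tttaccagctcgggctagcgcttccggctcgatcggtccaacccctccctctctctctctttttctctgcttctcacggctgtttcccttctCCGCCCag
BUB1B, chr15:40160969-40161068, plus strand: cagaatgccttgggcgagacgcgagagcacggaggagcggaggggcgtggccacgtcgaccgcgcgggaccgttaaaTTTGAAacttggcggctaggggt
CDC20, chr1:43358881-43358980, plus strand: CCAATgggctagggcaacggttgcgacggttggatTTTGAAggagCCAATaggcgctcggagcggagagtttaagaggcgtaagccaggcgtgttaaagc
PTTG1, chr5:160421755-160421854, plus strand: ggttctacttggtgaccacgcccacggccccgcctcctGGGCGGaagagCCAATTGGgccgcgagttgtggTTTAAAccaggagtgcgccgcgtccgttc
TOP2A, chr17:40417897-40417996, minus strand: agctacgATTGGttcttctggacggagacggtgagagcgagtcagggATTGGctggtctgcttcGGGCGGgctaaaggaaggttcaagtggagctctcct
MKI67, chr10:128126424-128126523, minus strand: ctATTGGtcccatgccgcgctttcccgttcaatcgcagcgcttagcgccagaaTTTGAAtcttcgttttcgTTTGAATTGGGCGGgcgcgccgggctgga

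CCNB1, PLK1 and PTTG1 each held a CHR form close to the start, at -30, -29 and -29, with a CCAAT box further upstream. In PTTG1 the CCAAT boxes of both strands overlapped, and in MKI67 the second TTTGAA ran into an overlapping reverse CCAAT box and a GC box. The 100 bases shown for CDC25A, CDC25C, CDK1, AURKB and TOP2A held no CHR form. Before other listed starts, TTTGAA stood at -30 in CDC25C and at -69 and -13 in CDK1. TTTAAA and CACGTG read the same on both strands and were counted once. In the longer window of 250 bases before to 50 bases after each start, 39 of the 49 genes matched with 53 windows, and AURKA, BIRC5, BUB3, FOXM1, KNL1, PKMYT1, TPX2, TTK, UBE2C and WEE1 had no entry.

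TTTGAA was present in 54.7% of the 53 windows, against 15.2% of 35116 windows of all genes and 10.5% of 15564 windows of the genes tested. TTTAAA was in 26.4%, against 12.2% of all windows and 8.33% of those of the genes tested. CCAAT was in 64.2%, against 34.6% and 34.7%. GGGCGG was in 69.8%, against 45.0% of all windows but 65.5% of those of the genes tested, and CACGTG in 9.43%, against 7.26% and 9.48%, so the shares of these last motifs were close to those of the genes tested. CHR forms were found in genes of every response. A TTTGAA or TTTAAA was in the windows of 8 of the 10 genes with a window that were lower after dBET1, of 10 of 10 that were higher and of 16 of 19 that did not pass the test. CCAAT was in 9 of 10 lower genes, 6 of 10 higher genes and 14 of 19 others. These are matches of letters, not measured binding.

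**Figure D1:**
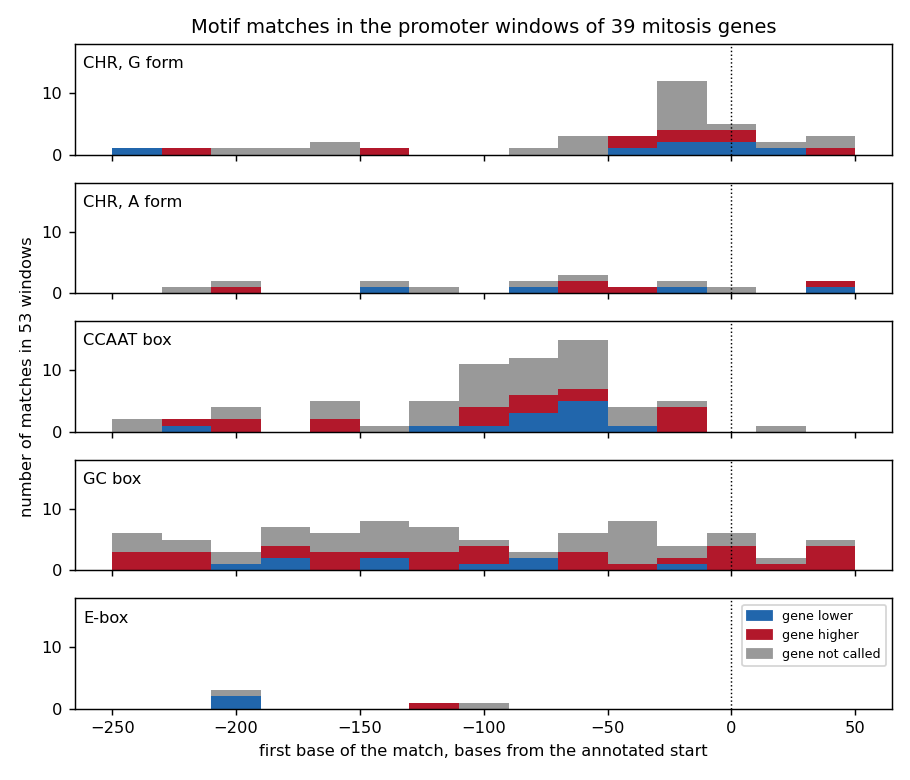
Number of motif matches in 20-base bins (y axis) by the position of the first matched base relative to the annotated start (x axis, bases), over 53 promoter windows of 39 mitosis genes. CHR matches of the G form (TTTGAA) pile up just before the start and CCAAT boxes upstream of it, and genes that were lower (blue), higher (red) and not called (grey) are mixed in both piles.

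The question put to the counts was how RNA of the mitotic machinery differed after dBET1. The 49 genes split in both directions with small changes. With the quasi-likelihood test of edgeR and p-values adjusted after Benjamini-Hochberg, at a threshold of 0.05, 14 genes were lower (28.6%, against 27.6% of all genes tested) and 11 were higher (22.4%, against 28.0%), while 24 did not pass. With the further limit of an absolute log2 fold change above 1, only CDC25A was lower (2.04%, against 8.54% of all genes tested) and no gene was higher (0 of 49 with edgeR and with DESeq2, against 16.9% of all genes tested), since none of the increases reached the limit. Among the 4675 tested genes of similar abundance, defined further on, 11.7% were lower and 2.76% were higher past both limits, so much of the 16.9% came from genes outside that range. The shares called in either direction at the first threshold were near those of all genes, so against that background they are no result about mitosis genes. Among the genes of similar abundance, 51.9% were lower and 18.3% were higher at that threshold. That range was chosen after the values were seen, and the difference from the 49 genes was not tested. The median log2 fold change was 0.068 for the 49 genes and 0.048 for all genes tested. The highest value was 0.95 in CDC25C and the lowest was -1.23 in CDC25A.

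Levels are given as CPM, that is counts scaled to 1 common library size after normalization with TMM factors. Summed over the 49 genes, they came to 6409 and 5990 CPM with DMSO and to 6066 and 6240 CPM with dBET1, so the dBET1 sums lay between the DMSO sums. In bulk RNA, fewer cells in a phase of the cycle and less RNA per cell cannot be told apart. The libraries of the groups did not overlap in 40 of the 49 genes (81.6%, against 79.3% of all genes tested), with dBET1 lower in 18 and higher in 22. The 9 genes with overlapping groups were CDK1, WEE1, BIRC5, TTK, BUB1, PTTG1, SPC24, ANLN and SMC4. Counts were at least 330 in every library for every gene but UBE2C and reached 17285 for TOP2A, and their standard errors on the log2 scale had a median of 0.093.

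Among genes of similar abundance the median was below 0. In the range of 38.7 to 211 CPM, which holds the middle of the 49 genes from the 10th to the 90th percentile and was chosen after the values were seen, 4675 genes were tested. Their median log2 fold change was -0.29, with 2425 lower (51.9%) and 855 higher (18.3%). Scaled by total counts only, the median of all genes tested moved from 0.048 to 0.26, and the split of the 49 genes from 14 lower and 11 higher to 7 lower and 23 higher. Without dBET1 replicate 1 it was 7 lower and 7 higher, without dBET1 replicate 2 it was 10 lower and 5 higher, without DMSO replicate 1 it was 14 lower and 18 higher, and without DMSO replicate 2 it was 18 lower and 10 higher.

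**Figure D2:**
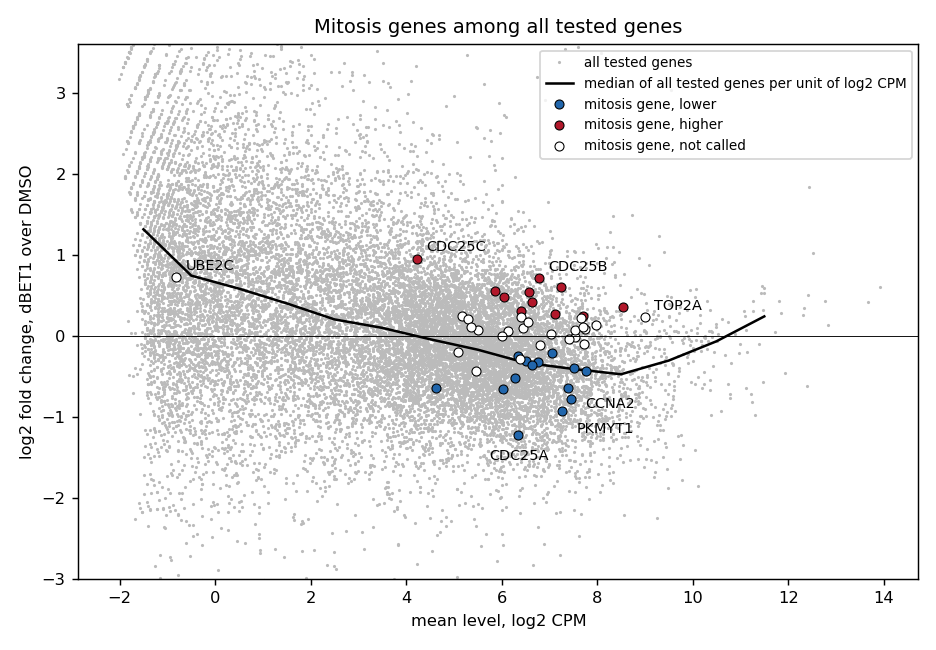
Log2 fold change of dBET1 over DMSO (y axis) against mean level in log2 CPM (x axis) for the genes tested (grey), with the 49 mitosis genes as large points and the median of all genes per unit of log2 CPM as a line. Genes beyond the y axis are not drawn. The line falls below 0 among well expressed genes, where mitosis genes that were lower (blue), higher (red) and not called (white) lie on both sides of it.

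Mitotic entry held the widest spread. Of 11 genes, 6 were lower (54.5%) and 2 were higher (18.2%), with a median log2 fold change of -0.31. In the abundance range 51.9% were lower and 18.3% higher, and of all genes tested 27.6% and 28.0%. Roles hold 5 to 11 genes each, and their shares were not tested against these. The CDC25 phosphatases, which remove the inhibitory phosphates from CDK1 and CDK2, moved apart. CDC25A (chr3:48157146-48188417, minus strand, like the other gene positions from GENCODE on hg38), the family member that also acts at the entry to S phase, read 112 and 116 CPM with DMSO and 50.01 and 47.6 CPM with dBET1. Both dBET1 libraries were below both DMSO libraries, and the gap between the groups was wider than that within either. Its log2 fold change was -1.23 ± 0.082 (SE, 2 libraries per group, adjusted p = 2.39e-05).

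CDC25B (chr20:3786772-3806121, plus strand), which acts early at the centrosome, read 83.5 and 84.1 CPM with DMSO and 132 and 143 CPM with dBET1. CDC25C (chr5:138285269-138338355, minus strand), which activates CDK1 at the onset of mitosis, read 13.8 and 11.7 CPM with DMSO and 24.7 and 24.8 CPM with dBET1. Both genes were higher in both dBET1 libraries, with no overlap. The log2 fold changes were 0.71 ± 0.079 (SE, adjusted p = 0.000218) for CDC25B and 0.95 ± 0.14 (SE, adjusted p = 0.000728) for CDC25C. The ratio of counts within a library does not depend on the scaling. CDC25A had 1.35 and 1.38 times the counts of CDC25B with DMSO and 0.379 and 0.334 times with dBET1, so the order of the pair turned over. With 2 libraries against 2, the smallest p that a two-sided exact permutation test allows is 0.333, and this ratio gave p = 0.333. CDC25C shares 8.80% of its exon length with FAM53C on the other strand, and FAM53C had 4340 and 3336 counts with DMSO and 4959 and 4974 with dBET1. The TruSeq RNA kit named in the labels does not mark strand, so strand does not separate the reads of the shared stretch. How these reads were split between the genes was not tested, and CDC25C had 330 to 757 counts.

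Of the kinases that hold CDK1 inactive, PKMYT1 was lower and WEE1 did not pass the test. PKMYT1 (chr16:2968024-2980479, minus strand), the membrane-bound kinase, read 184 and 221 CPM with DMSO and 103 and 109.7 CPM with dBET1. Both dBET1 libraries were lower, and the log2 fold change was -0.93 ± 0.10 (SE, adjusted p = 0.000204). PKMYT1 shares 24.7% of its exon length with PAQR4 on the other strand, whose counts were 2039 and 2147 with DMSO and 1298 and 1372 with dBET1. WEE1, the nuclear kinase, read 65.9 and 62.2 CPM with DMSO and 64.3 and 63.6 CPM with dBET1. WEE1 had 0.359 and 0.281 times the counts of PKMYT1 with DMSO and 0.624 and 0.580 times with dBET1, with no overlap.

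CDK1, the kinase itself, read 177 and 169 CPM with DMSO and 167 and 169 CPM with dBET1, and the groups overlapped (log2 fold change -0.038 ± 0.072, SE, adjusted p = 0.680). Its cyclins differed. CCNA2 (chr4:121816444-121823883, minus strand), the cyclin of S phase and G2, read 236 and 204 CPM with DMSO and 127 and 129 CPM with dBET1. It was lower in both dBET1 libraries (log2 fold change -0.78 ± 0.088, SE, adjusted p = 0.000233). CCNA2 shares 9.24% of its exon length with EXOSC9 on the other strand. EXOSC9 had 2573 and 2343 counts with DMSO and 1581 and 1623 with dBET1. CCNB1, the main mitotic cyclin, read 252 and 247 CPM with DMSO and 184 and 185 CPM with dBET1, a log2 fold change of -0.44 ± 0.069 (SE, adjusted p = 0.00121). CCNB2 read 85.8 and 70.5 CPM with DMSO and 86.7 and 97.1 CPM with dBET1, which did not pass the test (adjusted p = 0.115). CCNB1 had 2.94 and 3.51 times the counts of CCNB2 with DMSO and 2.12 and 1.91 times with dBET1. CCNB2 passed the test without DMSO replicate 1 (log2 fold change 0.35, adjusted p = 0.00445).

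PLK1 (chr16:23677656-23690367, plus strand), the kinase that drives entry, spindle assembly and cytokinesis, read 202 and 209 CPM with DMSO and 127 and 135 CPM with dBET1. FOXM1, a transcription factor of G2 and M phase genes, read 100.4 and 100.3 CPM with DMSO and 78.9 and 83.0 CPM with dBET1. Both genes were lower in both dBET1 libraries. The log2 fold change was -0.65 ± 0.075 (SE, adjusted p = 0.000254) for PLK1 and -0.31 ± 0.079 (SE, adjusted p = 0.0115) for FOXM1. The FOXM1 call was lost without dBET1 replicate 1 (-0.28, adjusted p = 0.168), without dBET1 replicate 2 (-0.36, adjusted p = 0.0824) and with total counts only (-0.099, adjusted p = 0.333). The calls of CCNA2, CCNB1, CDC25A, CDC25B, CDC25C, PKMYT1 and PLK1 held in every fit that was run.

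**Figure D3:**
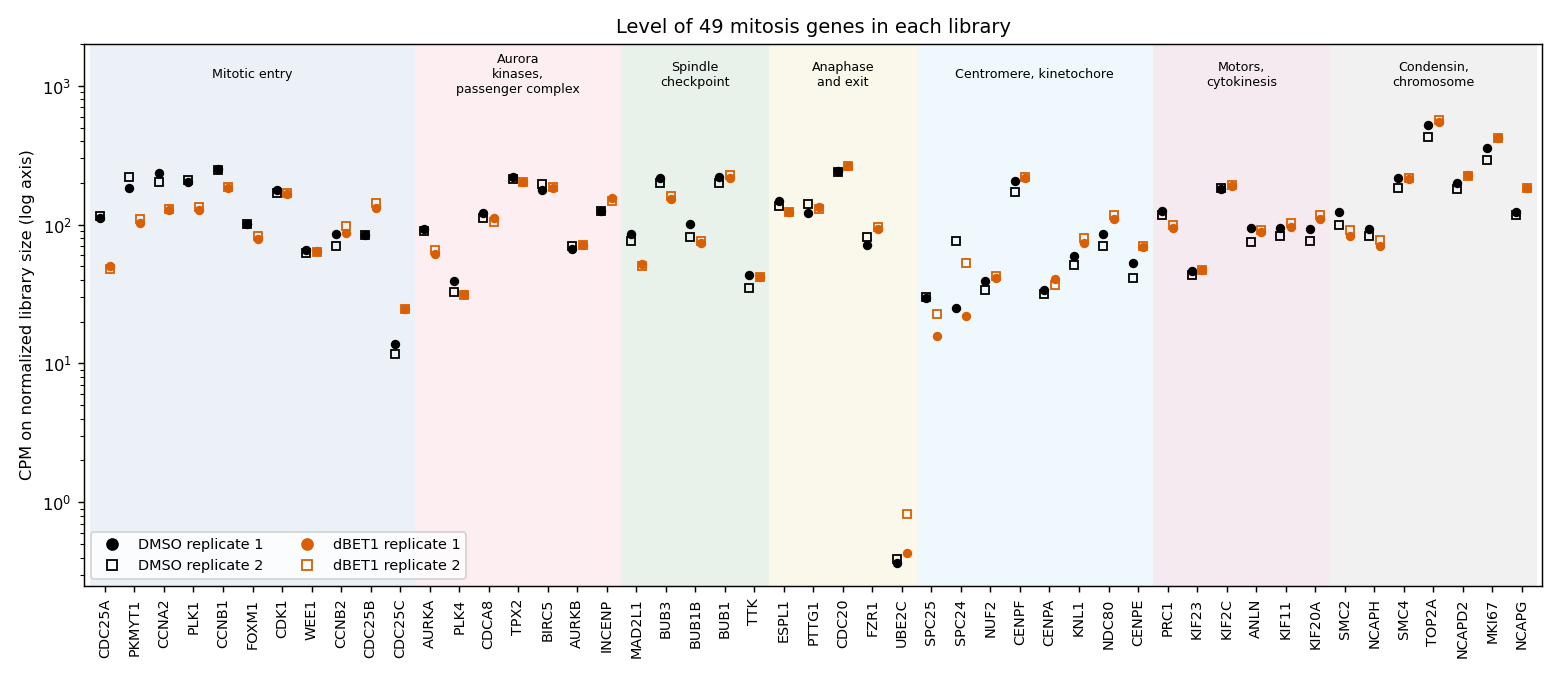
CPM on the normalized library size (y axis, log scale) of each of the 49 genes (x axis, by role and then by log2 fold change) in the DMSO libraries (black) and the dBET1 libraries (orange), with a symbol for each replicate. CDC25A falls from 112 and 116 to 50.01 and 47.6 CPM, the replicates of SPC24 differ more than its groups, and UBE2C lies far below the other genes.

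Of the 7 genes of the Aurora kinases, the chromosomal passenger complex and the centriole, 1 was lower, 1 was higher and 5 did not pass the test, with a median log2 fold change of -0.099. AURKA, the spindle pole kinase, read 92.7 and 90.2 CPM with DMSO and 61.4 and 65.7 CPM with dBET1. AURKB, the centromere kinase, read 67.0 and 69.6 CPM with DMSO and 71.5 and 70.7 CPM with dBET1. AURKA was lower in both dBET1 libraries (log2 fold change -0.53 ± 0.083, SE, adjusted p = 0.00126) and held its call in every fit, while AURKB did not pass (0.059 ± 0.081, SE, adjusted p = 0.565). AURKA had 1.38 and 1.30 times the counts of AURKB with DMSO and 0.858 and 0.930 times with dBET1, so it fell relative to AURKB. Per kilobase of exon, the mean levels with DMSO were near each other, at 31.2 CPM for AURKA and 30.5 CPM for AURKB. With dBET1 they were 21.7 and 31.7 CPM per kb. TPX2, the activator of AURKA on the spindle, read 221 and 214 CPM with DMSO and 203 CPM in both dBET1 libraries (log2 fold change -0.099, adjusted p = 0.256).

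INCENP, the scaffold that holds AURKB, was the highest of this group, at 126 and 125 CPM with DMSO and 155 and 148 CPM with dBET1 (log2 fold change 0.27 ± 0.073, SE, adjusted p = 0.0149). Its other partners BIRC5 (survivin) and CDCA8 (borealin) did not pass, at log2 fold changes of -0.018 and -0.11, nor did PLK4, the kinase that starts centriole duplication, at -0.20. The INCENP call was lost without dBET1 replicate 1 (0.23, adjusted p = 0.219), without dBET1 replicate 2 (0.29, adjusted p = 0.132) and without the count filter (0.22, adjusted p = 0.0655). Without DMSO replicate 2, TPX2 (-0.15, adjusted p = 0.0384), PLK4 (-0.36, adjusted p = 0.0098) and CDCA8 (-0.20, adjusted p = 0.0298) passed as lower.

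Of the 5 spindle checkpoint genes, 2 were lower and 3 did not pass, with a median of -0.29. MAD2L1 (chr4:120055623-120066858, minus strand), whose protein MAD2 blocks CDC20 at unattached kinetochores, read 85.2 and 75.6 CPM with DMSO and 51.8 and 50.1 CPM with dBET1. BUB1B, whose protein BUBR1 sits in the same inhibitory complex, read 102 and 80.9 CPM with DMSO and 73.5 and 76.5 CPM with dBET1. In neither gene did the groups overlap, but the DMSO libraries of BUB1B lay further apart than its groups did at their nearest. MAD2L1 was lower (log2 fold change -0.66 ± 0.093, SE, adjusted p = 0.000718) in every fit, and BUB1B did not pass (-0.29 ± 0.12, SE, adjusted p = 0.0672) except without DMSO replicate 2 (-0.47, adjusted p = 0.00025) and with DESeq2 (-0.32, adjusted p = 0.0389). BUB3, the partner of BUB1 and BUBR1, was lower at -0.40 ± 0.080 (SE, adjusted p = 0.0036), a call that was lost without dBET1 replicate 1 (-0.37, adjusted p = 0.0638) and with total counts only (-0.20, adjusted p = 0.0836). TTK, the kinase that starts checkpoint signalling, had the highest value of the 5 at 0.10, and it and BUB1 did not pass.

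Of the 5 genes of anaphase and mitotic exit, 1 was lower, 1 was higher and 3 did not pass. CDC20, the mitotic activator of the anaphase promoting complex, read 242 and 238 CPM with DMSO and 265 and 262 CPM with dBET1. PTTG1, which encodes securin, read 121 and 139.8 CPM with DMSO and 135 and 129 CPM with dBET1. CDC20 did not pass the test, with both dBET1 libraries above both DMSO libraries (log2 fold change 0.13 ± 0.068, SE, adjusted p = 0.127), and the groups of PTTG1 overlapped (fold 1.01, adjusted p = 0.891). FZR1, the activator that takes over from CDC20, was higher (0.31 ± 0.093, SE, adjusted p = 0.0232). ESPL1, the protease separase, had the lowest value and was lower (-0.22 ± 0.078, SE, adjusted p = 0.0457). UBE2C, a ubiquitin-conjugating enzyme of the complex, had the highest value at 0.72 and did not pass (adjusted p = 0.259), on 12 and 11 counts with DMSO against 13 and 25 counts with dBET1.

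Both calls in this group were lost when either dBET1 library was left out, although the estimates then moved little. Such a fit holds fewer libraries, so the loss does not show that 1 library carried a call. FZR1 lost its call without dBET1 replicate 1 (0.33, adjusted p = 0.116), without dBET1 replicate 2 (0.27, adjusted p = 0.210) and without the count filter (0.26, adjusted p = 0.110). ESPL1 lost its call under 7 of the alternatives, among them without dBET1 replicate 1 (-0.22, adjusted p = 0.271), without dBET1 replicate 2 (-0.24, adjusted p = 0.236) and with total counts only (-0.0069, adjusted p = 0.951).

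Of the 8 centromere and kinetochore genes, 1 was lower, 3 were higher and 4 did not pass, with a median of 0.23. The NDC80 complex, the microtubule anchor of the outer kinetochore, consists of NDC80, NUF2, SPC24 and SPC25. NDC80 read 86.0 and 69.7 CPM with DMSO and 109.6 and 117 CPM with dBET1. SPC25 (chr2:168834132-168913371, minus strand) read 29.8 and 30.1 CPM with DMSO and 15.7 and 22.5 CPM with dBET1. These subunits of 1 complex moved in opposite directions, NDC80 higher (log2 fold change 0.54 ± 0.11, SE, adjusted p = 0.00431) and SPC25 lower (-0.65 ± 0.17, SE, adjusted p = 0.0133). SPC25 had 0.347 and 0.432 times the counts of NDC80 with DMSO and 0.143 and 0.193 times with dBET1, with no overlap. The SPC25 call was lost without dBET1 replicate 1 (-0.42, adjusted p = 0.0929), with total counts only (-0.44, adjusted p = 0.0593) and without the count filter (-0.70, adjusted p = 0.0613).

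The replicates of SPC24 differed more than its groups. It had 821 and 2156 counts with DMSO against 657 and 1620 counts with dBET1, so replicate 2 was the higher one in both groups and the groups overlapped. The log2 fold change was -0.44 ± 0.52 (SE, adjusted p = 0.499), and it became -1.06 (adjusted p = 0.0195) without DMSO replicate 1 and -1.23 (adjusted p = 0.0386) without dBET1 replicate 2. NUF2 did not pass at 0.21 (adjusted p = 0.120) and passed without DMSO replicate 1 (0.28, adjusted p = 0.0257).

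CENPE, the kinetochore kinesin that moves chromosomes to the spindle equator, had the highest value of this group at 53.1 and 41.0 CPM with DMSO and 68.5 and 69.7 CPM with dBET1 (log2 fold change 0.55 ± 0.13, SE, adjusted p = 0.00688). KNL1, the platform that recruits the BUB proteins, was higher by 0.48 ± 0.10 (log2, SE, adjusted p = 0.00491). Both CENPE and NDC80 kept their calls in every fit that left out 1 library and lost them without the count filter (adjusted p = 0.0681 and 0.0504). KNL1 lost its call without dBET1 replicate 2 (0.41, adjusted p = 0.0664). CENPA, the centromeric histone, and CENPF, a large kinetochore protein, did not pass, at 0.24 (adjusted p = 0.0783) and 0.21 (adjusted p = 0.0877). CENPF passed without DMSO replicate 1 (0.32, adjusted p = 0.000918).

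Of the 6 genes of the mitotic motors and cytokinesis, 1 was lower, 1 was higher and 4 did not pass, with a median of 0.086. KIF20A, the kinesin that brings passenger proteins to the midzone, had the highest value, at 93.3 and 76.1 CPM with DMSO and 109.5 and 117 CPM with dBET1 (log2 fold change 0.42 ± 0.11, SE, adjusted p = 0.0126). PRC1, the crosslinker of midzone microtubules, had the lowest, at 126 and 117 CPM with DMSO and 95.1 and 98.6 CPM with dBET1 (-0.33 ± 0.079, SE, adjusted p = 0.00961). The groups overlapped in neither gene, although both act at the same structure. In KIF20A the DMSO libraries lay further apart than the groups did at their nearest. KIF20A shares 3.43% of its exon length with BRD8 and 1.92% with CDC23, both on the other strand. BRD8 had 2814 and 2353 counts with DMSO and 5174 and 5570 with dBET1. CDC23 went the other way, with 2788 and 2045 counts with DMSO and 1644 and 1709 with dBET1. KIF20A lost its call without dBET1 replicate 2 (0.36, adjusted p = 0.107) and without the count filter (0.37, adjusted p = 0.101), and PRC1 lost its call without dBET1 replicate 1 (-0.30, adjusted p = 0.129), without dBET1 replicate 2 (-0.37, adjusted p = 0.0751) and with total counts only (-0.12, adjusted p = 0.276). PRC1 shares 57.6% of its exon length with another annotated gene on the same strand, ENSG00000284946, and how counts were split there was not tested. The other 4, KIF11, KIF23, KIF2C and ANLN, ranged from 0.068 to 0.17, and KIF11 (0.25, adjusted p = 0.0133) and ANLN (0.25, adjusted p = 0.0119) passed without DMSO replicate 1.

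Of the 7 genes of condensin and chromosome structure, 2 were lower, 3 were higher and 2 did not pass, with a median of 0.23. NCAPG (chr4:17810979-17844865, plus strand), a HEAT repeat subunit of condensin I, read 124 and 117 CPM with DMSO and 182 and 184 CPM with dBET1. Both dBET1 libraries were higher (log2 fold change 0.60 ± 0.074, SE, adjusted p = 0.000345), in every fit. NCAPG shares 33.7% of its exon length with LCORL on the other strand, which had 603 and 525 counts with DMSO and 401 and 492 with dBET1, far fewer than the 3289 to 5607 of NCAPG. NCAPD2, the other HEAT repeat subunit, was higher at 0.25 ± 0.080 (SE, adjusted p = 0.0300). NCAPH, the kleisin subunit that bridges the complex, was lower at -0.26 ± 0.094 (SE, adjusted p = 0.0490). Of the ATPase subunits, SMC2 was lower and had the lowest value of the 7, at 123 and 99.95 CPM with DMSO and 83.4 and 90.9 CPM with dBET1 (-0.36 ± 0.11, SE, adjusted p = 0.0273), and SMC4 did not pass at 0.11 (adjusted p = 0.356).

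Within condensin I subunits of 1 complex lay on both sides of 0. NCAPH had 0.750 and 0.710 times the counts of NCAPG with DMSO and 0.386 and 0.419 times with dBET1. SMC2 had 0.567 and 0.548 times the counts of SMC4 with DMSO and 0.389 and 0.419 times with dBET1. Neither ratio overlapped between groups, as in every pair compared except SPC24 with NDC80. The smaller changes lost their calls in some fits that left out 1 library, and such fits hold fewer libraries. NCAPD2 lost its call without DMSO replicate 2 (0.14), dBET1 replicate 1 (0.24) or dBET1 replicate 2 (0.24). It also lost the call with DESeq2 (0.21, adjusted p = 0.0715) and without the count filter. NCAPH lost its call under 8 of the alternatives, among them without DMSO replicate 1 (-0.20), dBET1 replicate 1 (-0.20) or dBET1 replicate 2 (-0.34). The call was also lost with total counts only (-0.046, adjusted p = 0.720) and without the count filter. The remaining losses were with at least 10 counts in every library, with the replicate block and with counts divided by 2. SMC2 lost its call without dBET1 replicate 1 (-0.30) or dBET1 replicate 2 (-0.44) and with total counts only (-0.15, adjusted p = 0.314). It also lost the call without the count filter and with at least 10 counts in every library. SMC4 passed without DMSO replicate 1 (0.22, adjusted p = 0.0087).

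TOP2A and MKI67 are the usual RNA markers of proliferating cells. TOP2A, the topoisomerase that untangles sister chromatids, read 520.4 and 429 CPM with DMSO and 546 and 566 CPM with dBET1. MKI67, the protein Ki-67 that coats mitotic chromosomes, read 357 and 294 CPM with DMSO and 417 and 418 CPM with dBET1. Both dBET1 libraries were above both DMSO libraries in each gene, but the DMSO libraries lay further apart than the groups did at their nearest. MKI67 passed the test (log2 fold change 0.36 ± 0.097, SE, adjusted p = 0.0150) and TOP2A did not (0.23 ± 0.098, SE, adjusted p = 0.0794). MKI67 lost its call without dBET1 replicate 1 (0.36, adjusted p = 0.0793), without dBET1 replicate 2 (0.34, adjusted p = 0.0856) and without the count filter (0.30, adjusted p = 0.118), and TOP2A passed without DMSO replicate 1 (0.35, adjusted p = 0.000268).

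**Figure D4:**
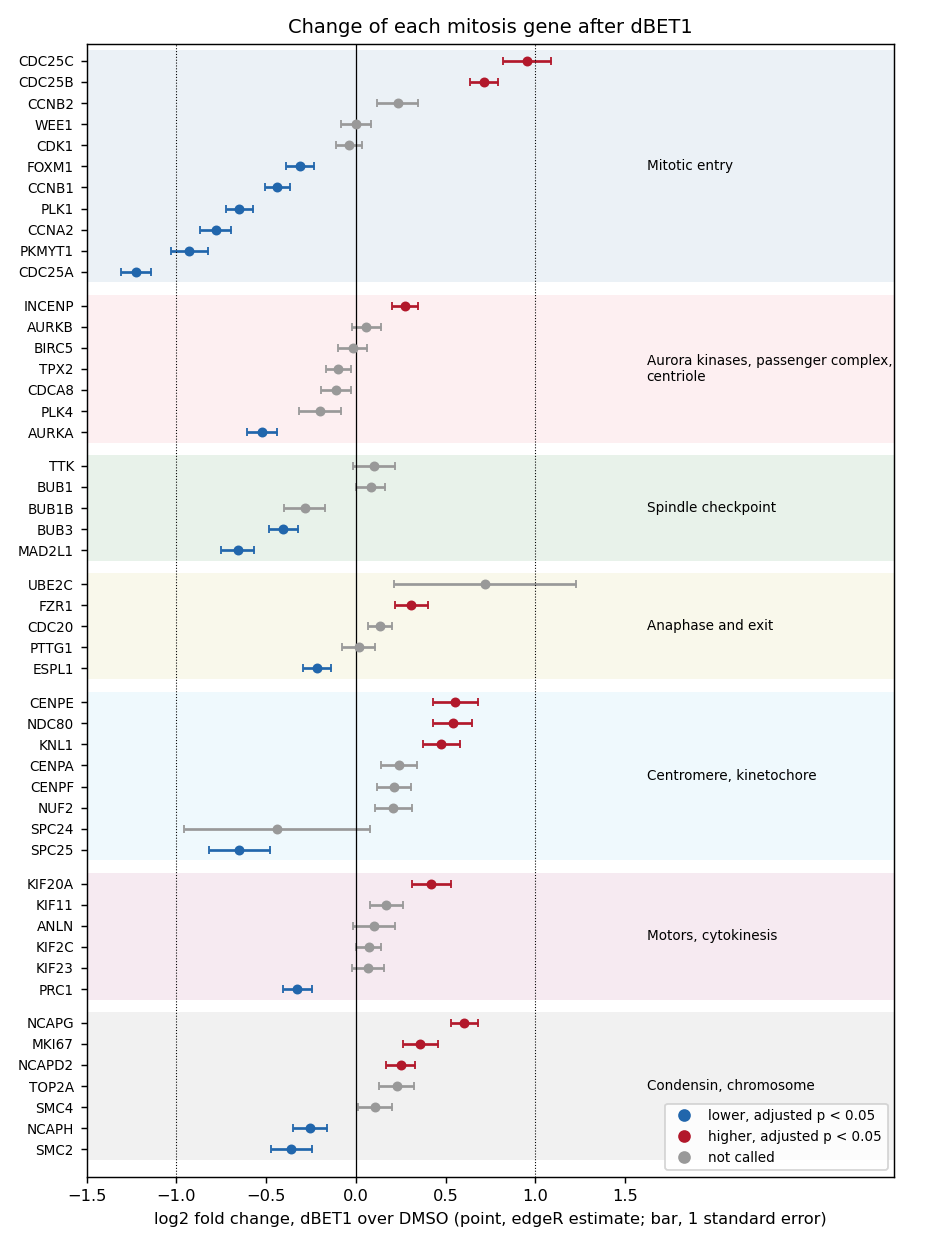
Log2 fold change of dBET1 over DMSO (x axis) for each of the 49 genes (y axis, by role), as the edgeR estimate with a bar of 1 standard error, coloured by the call at an adjusted p under 0.05, with dotted lines at -1 and 1. CDC25A alone lies beyond a dotted line, and every role but the spindle checkpoint holds both lower and higher genes.

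Per kilobase of exon, the highest levels with DMSO were those of CDC20 at 119.5, CCNB1 at 103, CCNA2 at 80.2, TOP2A at 74.4 and PTTG1 at 65.9 CPM per kb. The lowest were CDC25C at 3.84 and UBE2C at 0.295 CPM per kb. Whether the counting or the annotation has a part in the low value of UBE2C was not tested. With dBET1, CDC20 stood at 131 CPM per kb, and TOP2A, at 87.2, was above CCNB1 at 75.8 and CCNA2 at 46.6. Levels per length rest on the union of annotated exons, so they are lower for genes with long exons that the cells do not use.

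The libraries of a group also differed within these genes. DMSO replicate 1 was above DMSO replicate 2 in 37 of the 49 (75.5%), with a median log2 difference of 0.11, against 49.7% and 0.00 over all genes tested. dBET1 replicate 1 was above dBET1 replicate 2 in 12 of the 49 (24.5%), with a median of -0.039, against 50.9% and 0.0037 over all genes tested. Gene length moved with these differences and with the treatment. When the tested coding genes were divided into 4 bins of equal size by exon length, the median log2 fold change of dBET1 over DMSO was -0.21, -0.094, -0.013 and 0.061 from the shortest to the longest, and for the mitosis genes in those bins it was -0.047, 0.027, 0.082 and 0.16. DMSO replicate 1 over replicate 2 gave -0.087, -0.0076, 0.035 and 0.12 in the same bins of the coding genes. The part of length in the changes was not tested.

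A further 140 genes of mitosis, named by role and counted separately, covered parts of the machinery that the 49 leave out. Of these, 61 were lower (43.6%, against 27.6% of all genes tested and 51.9% of those in the abundance range above), 29 were higher (20.7%, against 28.0% and 18.3%) and 50 did not pass, with a median log2 fold change of -0.17 that turned to 0.039 with total counts only. With the limit of 1 on the log2 scale, 7 were lower (5.0%, against 8.54%) and 2 were higher (1.43%, against 16.9%). The inner centromere genes stood at a median of -0.42, with 10 lower of 19 and a highest value of 0.13 in CENPQ, among them CENPX at -1.91, CENPW at -0.94 and CENPM at -0.90. The subunits and regulators of the anaphase promoting complex stood at -0.38, with 11 lower and 1 higher of 18. The kinesins and spindle genes stood at 0.22, with 8 lower and 14 higher of 29, among them ASPM and KIF4A higher and the augmin subunit HAUS7 lower. The MuvB and other entry genes stood at -0.46, with 11 lower and 2 higher of 16. MYBL2, which encodes B-MYB, was the lowest at -0.99. The shares lower were 52.6% for the inner centromere, 61.1% for the anaphase promoting complex and 68.8% for the MuvB group. In the abundance range 51.9% were lower, near the inner centromere share. Of the kinesins and spindle genes, 27.6% were lower and 48.3% higher, against 51.9% and 18.3% in that range. These differences were not tested.

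The outer kinetochore genes had 7 lower and 3 higher of 15, cohesin 6 lower and 2 higher of 14, other checkpoint genes 5 lower and 4 higher of 14, other cytokinesis and centriole genes 2 lower and 3 higher of 12, and condensin II 1 lower of 3. Among genes with a mean of at least 100 counts, those with the largest decreases were ANAPC15, a subunit of the anaphase promoting complex, CENPX, a histone-fold protein of the centromere, and HAUS7. ANAPC15 read 28.8 and 31.7 CPM with DMSO and 6.20 and 5.96 CPM with dBET1 (log2 fold change -2.31 ± 0.14, SE). CENPX read 114 and 152 CPM with DMSO and 34.8 and 35.9 CPM with dBET1 (-1.91 ± 0.14, SE). HAUS7 read 47.5 and 65.2 CPM with DMSO and 16.7 and 19.1 CPM with dBET1 (-1.66 ± 0.16, SE). All of these were lower in both dBET1 libraries by more than any of the 49 genes.

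The largest increases were in NEK9, a kinase of spindle assembly, ASPM, a spindle pole protein, and CIT, the citron kinase of cytokinesis. NEK9 read 50.3 and 52.5 CPM with DMSO and 138 CPM in both dBET1 libraries (log2 fold change 1.43 ± 0.079, SE). ASPM read 140.4 and 102 CPM with DMSO and 253 and 244 CPM with dBET1 (1.04 ± 0.14, SE). CIT read 64.8 and 52.5 CPM with DMSO and 116 and 117 CPM with dBET1 (0.99 ± 0.11, SE). The groups overlapped in none of these, and all 6 genes named here as the largest changes were called in every fit.

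DNA replication genes, which act earlier in the cycle than mitosis, are given beside the mitosis genes without a test of the difference. Of 42, 30 were lower (71.4%, against 51.9% in the abundance range and 27.6% of all genes tested) and 1 was higher, with a median log2 fold change of -0.58 that stayed below 0 at -0.37 with total counts only. The helicase genes MCM3 and MCM7 and the sliding clamp gene PCNA were among 7 that were lower past the limit of 1 on the log2 scale, with MCM3 at 549.7 and 538 CPM with DMSO and 226 and 229.6 CPM with dBET1.

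**Figure D5:**
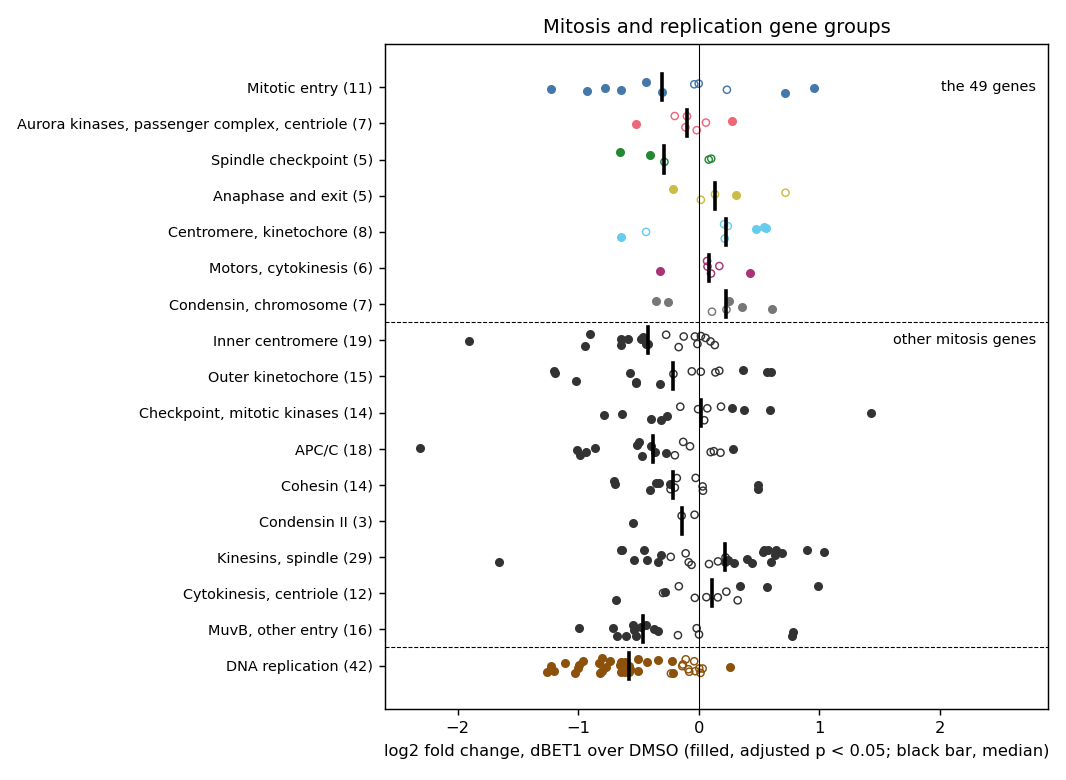
Log2 fold change of dBET1 over DMSO (x axis) of each gene in the 7 roles of the 49 mitosis genes, in 9 groups of other mitosis genes and in DNA replication (y axis, number of genes in brackets), with filled points at an adjusted p under 0.05 and a black bar at the median. The medians run from 0.23 for the kinetochore and condensin genes among the 49 to -0.58 for DNA replication. The other outer kinetochore genes had a median of -0.21 and the condensin II genes a median of -0.14.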

How the data were processed

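RNA-seq counts of 4 libraries were used, 2 labelled dBET1 and 2 labelled DMSO. The authors aligned 150 bp paired-end reads to hg38 with HISAT2 2.2.0, estimated abundances with StringTie and deposited whole-number counts per Ensembl gene, without normalization. The step from abundances to counts and its read length are not given in the sources used here. If reads were counted for overlapping genes on either strand, such genes share counts.

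Columns were matched to libraries by group name and number, with 0 columns left out, and 0 rows named no gene. Of 64252 identifiers, 56105 had a symbol in GENCODE release 44 on hg38, and identifiers without one held 2.57% of the counts. The 49 genes, the other gene lists and the rules were chosen with earlier results of these data known.

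Counts were analysed with edgeR 4.0.16 in R 4.3.3, with filterByExpr, TMM factors (0.918 to 1.08), the quasi-likelihood test on the group alone and Benjamini-Hochberg adjustment over 17971 genes. The thresholds were an adjusted p under 0.05 and, where named, an absolute log2 fold change above 1, as in the study's methods. The standard error was the log2 fold change divided by the square root of F, and the biological coefficient of variation was 0.123. Counts are at least 330 per library for all but 1 of the genes, so spread between libraries and not depth limits precision. The fit was tested on simulated data with known changes.

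Values in every library were given for genes called with more than a 1.5-fold change, for CDK1, CCNB1, PLK1, AURKA, AURKB, BUB1B, MAD2L1, CDC20, PTTG1, NDC80, TOP2A, MKI67 and FOXM1 whatever their result, and for the extremes within a role; other values were chosen after they were seen. Of the other mitosis genes, the rule took the 3 called genes with the largest change in each direction and a mean of at least 100 counts. Ratios of counts between 16 pairs of genes were computed in each library. Overlaps and lengths came from the union of exons. Promoter windows came from RefSeq. The results were recomputed with DESeq2 1.42.0, with its size factors, with scaling by total counts only, without a count filter, with a filter of 10 counts per library, with a block for the replicate number, with 1 library left out and with counts divided by 2.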

Additional observations from a re-analysis of the deposited data

How the results depend on the processing

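With 2 libraries in each group, standard errors rest on few degrees of freedom, and no group is large enough for a test of single outlying libraries. In a fit without 1 library, the lone library is assumed to vary like the other group. Of the 25 called mitosis genes, 10 were called in every fit and 12 in every fit without 1 library, and no called gene changed sign.

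The count of lower mitosis genes, 14 in the report, was 7 with total counts only and 7 to 18 without 1 library. The count of higher ones, 11 in the report, was 23 with total counts only, 4 without a count filter, 17 with at least 10 counts in every library and 5 to 18 without 1 library. Past the limit of 1 on the log2 scale, 1 higher gene appeared with total counts only and 1 with at least 10 counts, and without 1 library there were 1 to 3 lower and 0 to 1 higher. The median, 0.068, was 0.28 with total counts only, 0.014 without a filter, 0.14 with at least 10 counts and -0.011 to 0.064 without 1 library.

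For the other mitosis genes, lower counts were 37 with total counts only and 37 to 68 without 1 library, and higher counts were 18 without a filter and 18 to 32 without 1 library. Past the limit, 3 were lower and 4 higher with total counts only, and 1 was higher without a filter and 1 with DESeq2. The median was 0.039 with total counts only, -0.22 without a filter, -0.10 with at least 10 counts, -0.14 with counts divided by 2, -0.21 with DESeq2 and -0.23 to -0.18 without 1 library.

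For DNA replication genes, 2 were higher with total counts only and 0 without a filter, with the replicate block and with DESeq2, and 0 to 1 without 1 library. Past the limit, 3 were lower with total counts only. The median was -0.60 with DESeq2's size factors, -0.37 with total counts only, -0.64 without a filter, -0.51 with at least 10 counts, -0.55 with counts divided by 2, -0.62 with DESeq2 and -0.64 to -0.59 without 1 library.

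Over all genes tested, 952 were lower past the limit with total counts only, 1940 were higher past it with at least 10 counts, and 3356 to 5118 were higher without 1 library. The causes of these moves were not tested, beyond the fewer libraries, genes or other scaling that each alternative uses.

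The replicate number does not mark a shared culture in the labels, and the deviations of same-numbered libraries correlated at -0.0075 over genes. With the number as a replicate block, 13 mitosis genes were lower and 11 higher. The calls of ESPL1 and NCAPH were lost, and SPC24, whose replicate 2 was higher in both groups, passed as lower (-0.37, adjusted p = 0.0182). DESeq2 gave 15 lower and 10 higher.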
